A study of Mus musculus with 32 samples.

Results

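Agrp, Npy, Pomc and Cartpt encode the precursors of feeding peptides, and their transcripts were followed cell by cell in the mouse median eminence (ME). The 4 genes were found by symbol among the 27998 genes of the count matrix, and all 4 were present. AgRP blocks melanocortin receptors and NPY acts on its own family of receptors, and both drive eating. POMC is cut to alpha-MSH, which activates the melanocortin receptors and curbs eating, and to beta-endorphin and ACTH, and CART peptides are likewise classed with the signals that curb eating. In the arcuate nucleus, which borders the ME, one set of neurons makes AgRP with NPY and another makes POMC, partly with CART.

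The study pooled the ME of 5 male C57B/L6 mice fasted overnight for 16 h and, separately, of 5 mice given food again for 1 h, all 40 to 47 days old. Live nucleated cells of each pool were sorted and split over 2 libraries, and 32 sample records stand for lanes and index parts of these 4 libraries. The matrix holds 5982 cells with 29288898 unique molecular identifiers (UMIs, each standing for 1 captured transcript), a median of 3837 UMIs per cell (range 1533 to 25054), and cell barcodes that end in a number from 1 to 4. No source used here ties a number to a library or to a condition, so fasted and refed mice were not compared, all cells count as 1 sample, and no test between groups of mice could be run. Numbers 1 to 4 held 1642, 1493, 1359 and 1488 cells. 42 cells carried a barcode sequence found under more than 1 number, and 0 of them passed the cut for expression, described below, for any of the 4 genes. Levels are given as UMIs per 1000000 UMIs of the group (CPM), and 95% intervals (exact Poisson for CPM, exact Clopper-Pearson for shares) cover counting error only.

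The genes lie apart in the genome (GRCm38). Agrp (ENSMUSG00000005705) is annotated on chromosome 8, minus strand, from 105566698 to 105637393. That span of 70696 bases overlaps 7 other annotated genes, Ctcf and Ripor1 among them. The effect of this overlap on the Agrp count was not tested. Npy (ENSMUSG00000029819) is on chromosome 6, plus strand, from 49822710 to 49829507. Pomc (ENSMUSG00000020660) is on chromosome 12, plus strand, from 3954951 to 3960642. Cartpt (ENSMUSG00000021647) is on chromosome 13, minus strand, from 99898489 to 99901091. The last 3 overlap 0 other genes. Promoter sequences of these 3 genes (RefSeq, GRCm38.p6, 250 bases before to 50 after the annotated start) are shown as the regulatory sequence next to the start of each of them, and the Agrp promoter was not used here. Capitals mark matches on either strand to the core promoter motif TATAAA and to the cAMP response element, TGACGTCA.
Npy, chr6:49822460-49822759, plus strand: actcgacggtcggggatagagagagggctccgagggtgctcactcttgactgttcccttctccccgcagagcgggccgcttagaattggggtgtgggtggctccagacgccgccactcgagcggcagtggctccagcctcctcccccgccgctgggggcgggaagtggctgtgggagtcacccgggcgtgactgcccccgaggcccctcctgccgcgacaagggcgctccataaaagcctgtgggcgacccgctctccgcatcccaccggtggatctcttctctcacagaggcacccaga
Pomc, chr12:3954695-3954994, plus strand: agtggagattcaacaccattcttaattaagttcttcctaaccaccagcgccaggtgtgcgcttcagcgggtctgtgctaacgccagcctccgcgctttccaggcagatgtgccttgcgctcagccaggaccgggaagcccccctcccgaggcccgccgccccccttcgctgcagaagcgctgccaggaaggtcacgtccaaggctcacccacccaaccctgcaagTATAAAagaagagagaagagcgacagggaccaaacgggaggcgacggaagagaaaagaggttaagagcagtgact
Cartpt, chr13:99900634-99900933, minus strand: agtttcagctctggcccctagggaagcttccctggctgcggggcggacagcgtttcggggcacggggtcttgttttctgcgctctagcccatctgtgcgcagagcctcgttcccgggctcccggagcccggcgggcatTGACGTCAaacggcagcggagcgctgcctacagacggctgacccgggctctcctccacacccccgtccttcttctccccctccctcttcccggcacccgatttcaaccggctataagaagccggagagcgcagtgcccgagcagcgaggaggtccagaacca
The Pomc window held TATAAA, beginning at position -25 from the start, as did 13.6% of all 32851 promoters in the table. The Cartpt window held TGACGTCA, beginning at position -112, a motif found in 1.79% of the promoters. The Npy window held neither motif, and none of the 3 windows held the STAT-type motif TTCNNNGAA (8.30% of promoters) or the E-box CACGTG (7.15%). These matches are letters in a window and not measured sites.

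Cell types were named from marker lists after clustering without the 4 genes. The largest classes were 1481 tanycyte-like, 1419 astrocyte-like, 658 mature oligodendrocyte (MOL)-like and 556 neuron-like cells, and 403 cells were microglia-like. 222 cells had no name. All 10 neuron markers were detected in the neuron-like cells that expressed Agrp, Pomc or Cartpt, but these cells were named from that list. All 10 were also detected in MOL-like and microglia-like cells, at a summed 775 CPM. In the neuron-like cells that expressed Agrp, Pomc or Cartpt the sums were 10366, 12556 and 13402 CPM. Neuron-like cells were the deepest of these classes, with a median of 12822 UMIs against 6139.5 in MOL-like and 3080 in microglia-like cells.

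Agrp, Npy and Cartpt RNA was concentrated in neuron-like cells, and Pomc RNA was divided between them and a minute unnamed cluster. They held 94.8% of the 14825 Agrp UMIs (interval 94.4 to 95.1%), 92.0% of the 26317 Npy UMIs (91.7 to 92.3%) and 89.96% of the 4839 Cartpt UMIs (89.1 to 90.8%). Of the 3319 Pomc UMIs they held 40.8% (39.2 to 42.5%), while a cluster of 8 cells held 46.1%. A single cell held 899 of the 1531 Pomc UMIs of this cluster. Without that cell the cluster held fewer Pomc UMIs than the neuron-like cells, which held 1355. In neuron-like cells the level was 2072 CPM for Agrp, 3570 CPM for Npy, 642 CPM for Cartpt and 199.8 CPM for Pomc. In MOL-like cells, which should lack all 4 genes, the levels were 32.6, 68.3, 11.4 and 12.7 CPM in the same gene order.

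Detection of a UMI was a poor guide to expression. At least 1 Agrp UMI was found in 45.3% of neuron-like cells, but also in 18.8% of MOL-like cells and 12.7% of microglia-like cells. For Npy the shares were 67.8%, 35.3% and 21.3%. After each cell was thinned to 2000 UMIs, which left out 7 neuron-like and 43 MOL-like or microglia-like cells, the share with Npy was 26.6% in neuron-like cells and 11.8% in the latter 2 types together. The thinned shares for Agrp were 20.9% and 7.17%, for Pomc 7.29% and 2.55%, and for Cartpt 21.1% and 2.55%. Cells were therefore called expressing only when their UMIs reached a cut, set from the level in MOL-like and microglia-like cells of the same barcode number and the total of the cell (Poisson tail under 0.0001, at least 3 UMIs).

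**Figure D1:**
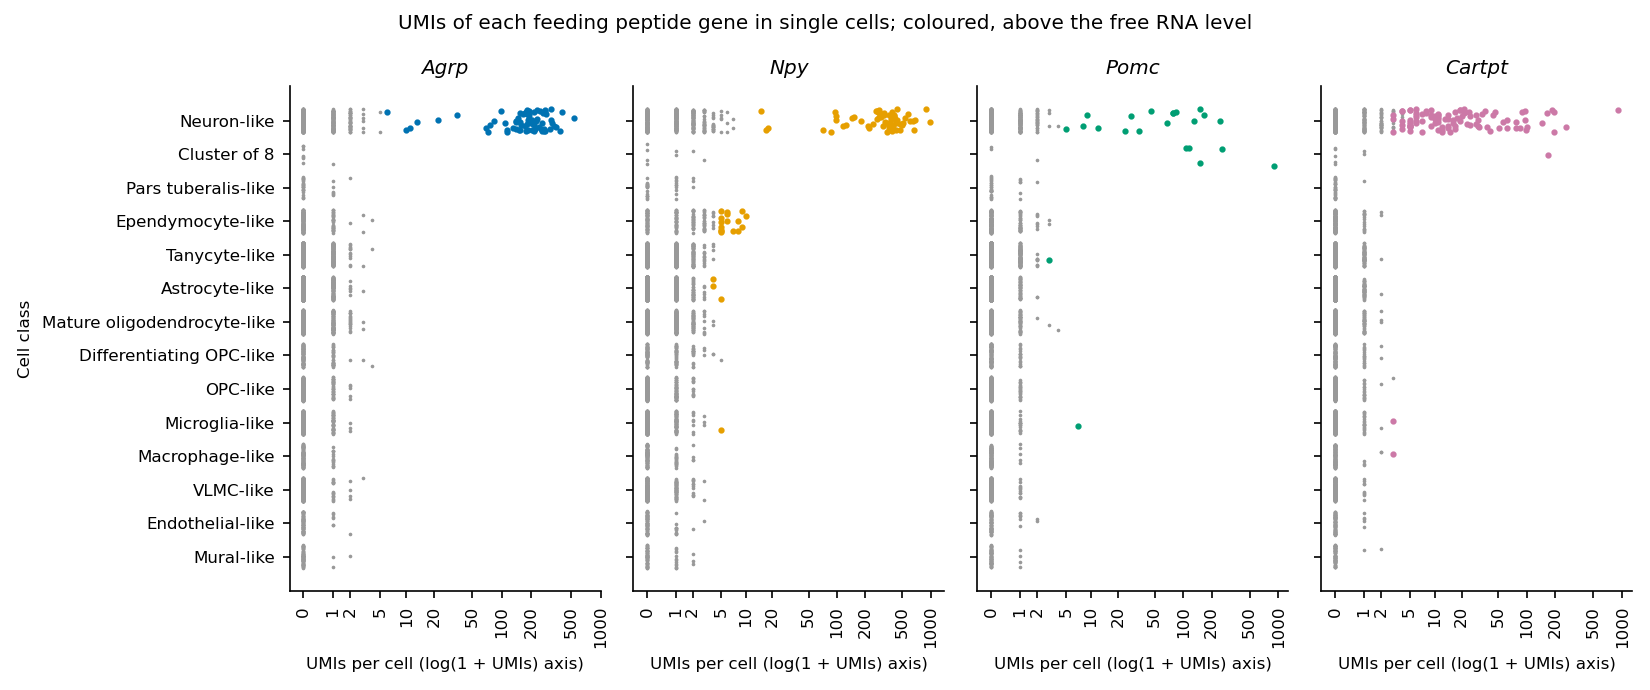
Each point is 1 cell, placed by its UMIs of Agrp, Npy, Pomc or Cartpt (horizontal axis, log(1 + UMIs)) and its cell class (vertical axis, with random height within a class). Coloured cells lie above the cut for expression (the free RNA level of the figure title) and grey cells below it. The other unnamed cells are not drawn. Agrp and Npy fall into separate low and high groups among neuron-like cells, with most of the high group over 100 UMIs, whereas Cartpt spreads from 3 to 901 UMIs.

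Agrp had 71 expressing cells, all of them neuron-like. Their Agrp UMIs ranged from 6 to 543 with a median of 189, and 65 of the 71 held at least 50. They were 1.19% of all cells and held 93.1% of the Agrp UMIs. In the median expressing cell, Agrp made up 1.10% of all UMIs, and in the highest 6.10%. Few cells lay between the high group and the background. Among neuron-like cells, 304 held 0 Agrp UMIs, 128 held 1, 45 held 2, 6 held 3 or 4, 8 held 5 to 49, and 65 held 50 or more.

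Npy had 88 expressing cells, of which 68 were neuron-like. In these 68 cells Npy ranged from 15 to 988 UMIs with a median of 358.5, and no neuron-like cell held between 20 and 49. Npy reached 7.65% of the UMIs of a cell at most. The other 20 cells were 16 ependymocyte-like cells with 5 to 10 UMIs, 3 astrocyte-like cells with 4 or 5, and 1 microglia-like cell with 5. Neuron-like expressing cells were thus separated from the rest by their UMI number, and the 20 others were near the cut.

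Agrp and Npy were found in the same cells. 66 of the 71 Agrp cells (93.0%) were also above the Npy cut, as were 66 of the 68 neuron-like Npy cells for Agrp. Within these 66 cells the ratio of Npy to Agrp UMIs had a median of 1.75 (range 0.205 to 4.77, quartiles 1.35 and 2.15), and Npy exceeded Agrp in 57. The median ratio by barcode number was 1.93, 1.42, 1.74 and 1.71 for numbers 1 to 4, in 16, 12, 24 and 14 cells. Over the 556 neuron-like cells, the log-scaled counts of both genes had a Pearson r of 0.894, a description over cells that share libraries and depth. The correlation of Agrp with Cartpt was 0.118 and with Pomc -0.0029.

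7 neuron-like cells stood above only 1 of these 2 cuts. 5 of them were above the Agrp cut alone, with 6, 10, 13, 75 and 171 Agrp UMIs beside 0, 3, 1, 6 and 4 Npy UMIs. 4 of the 5 also held 199 to 334 UMIs of Sst, which encodes somatostatin. The other 2 cells held 223 and 98 Npy UMIs beside 3 and 2 Agrp UMIs. Both were also Sst positive, with 22 and 175 UMIs. These 7 cells lay mostly in 1 cluster led by Sst, to which 5 of them belonged.

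**Figure D2:**
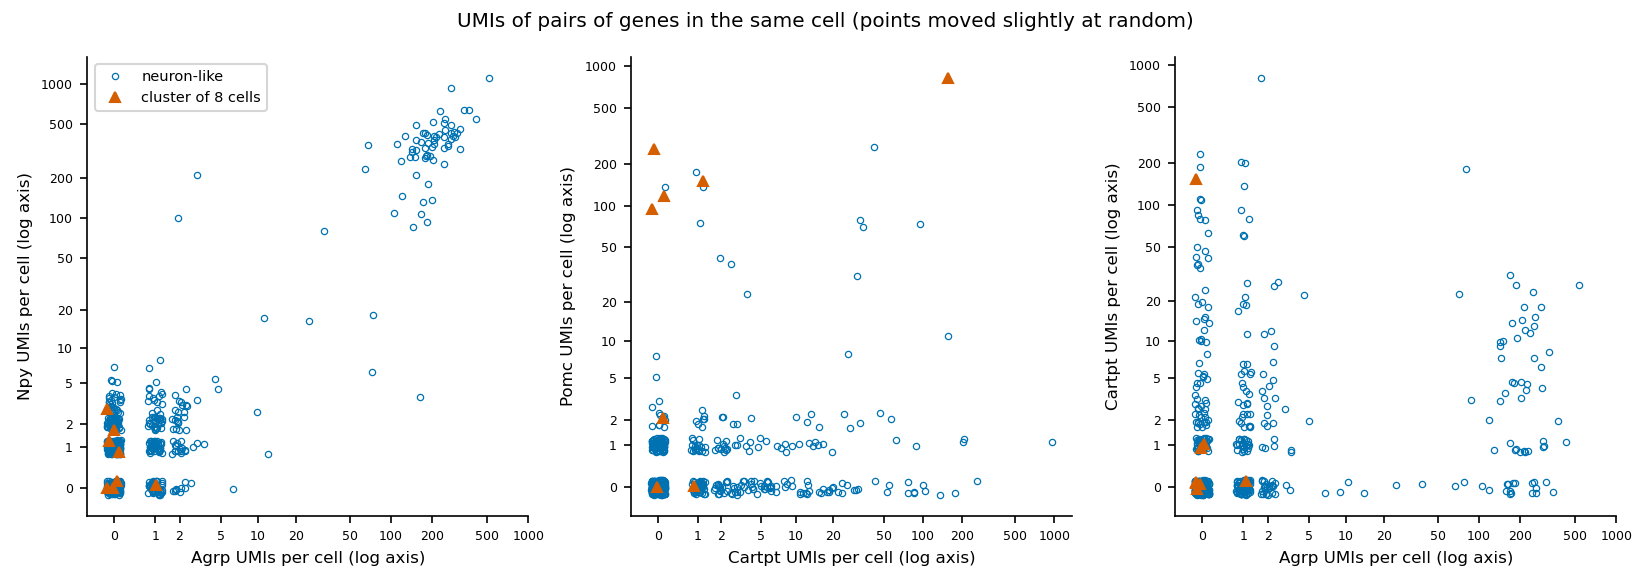
UMIs of 2 genes in the same cell on log(1 + UMIs) axes (Agrp and Npy, Cartpt and Pomc, Agrp and Cartpt), with neuron-like cells as circles and the unnamed cluster of 8 cells as triangles; points were moved slightly at random. 66 cells hold high Agrp and high Npy together, while high Cartpt is found mainly at low Agrp, with an exception at 163 Cartpt and 83 Agrp UMIs.

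Clustering of the neuron-like cells without the 4 genes placed most Agrp cells together. A cluster of 65 cells led by Cited1, Otp and Acvr1c held 86.2% of all Agrp UMIs and 87.0% of all Npy UMIs, at 11773 CPM and 21095 CPM. 60 of its cells were above the Agrp cut and 61 above the Npy cut. Otp encodes a homeodomain transcription factor of hypothalamic neurons, and Acvr1c a receptor of the TGF-beta family. A cluster of 33 cells led by Sst, Cbln4 and Ngb followed at 1956 CPM for Agrp and 1482 CPM for Npy, with 8 and 5 cells above the cuts and 18607 CPM of Sst. In this cluster the 4 cells above both cuts had a median ratio of Npy to Agrp of 0.844, against 1.80 in 60 cells of the first cluster. In the other clusters Agrp was at 168 CPM or less and Npy at 189 CPM or less.

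The genes most like Agrp and Npy across the 556 neuron-like cells were nearly shared. For Agrp they were Acvr1c (r 0.730), Ghr (the growth hormone receptor, 0.718), Serpina3n (0.686), Otp (0.628) and Npy2r (0.579). For Npy they were Acvr1c (0.748), Ghr (0.705), Serpina3n (0.701), Otp (0.602) and Gm8773 (0.586). Values for Pomc and Cartpt were far lower, led by Ttr (0.308) and by Isl1 (0.338).

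Cartpt had the most expressing cells and the lowest UMI numbers in them. Of 101 cells above its cut, 98 were neuron-like, and in these the range was 3 to 901 UMIs with a median of 14. 26 of the 101 cells lay within 2 UMIs of their cut. 66 of the 98 neuron-like cells were above no other cut, 25 were above those of Agrp and Npy, 5 above that of Pomc, and 2 above all 4. Neuron-like cells above no cut still had 42.2 CPM of Cartpt (36.4 to 48.7), over 13.4 CPM (10.6 to 16.7) in MOL-like and microglia-like cells, so the boundary of Cartpt cells was not sharp. For Agrp the matching levels were 44.0 and 34.4 CPM, for Npy 96.3 and 70.5 CPM, and for Pomc 27.8 and 13.8 CPM.

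Cartpt was spread over several neuron clusters. The highest level, 2728 CPM with 15 of 24 cells above the cut, was in a cluster led by Ghrh (growth hormone-releasing hormone), Gal (galanin) and Penk (enkephalin). A cluster of 78 cells led by Tac1 (substance P precursor) and Trh (thyrotropin-releasing hormone) had 2192 CPM, with 22 cells above, and held the largest part of all Cartpt UMIs (41.7%). The cell with 901 Cartpt UMIs was in this cluster, and without it the cluster was at 1237 CPM (1165 to 1312) and held 28.4% of the Cartpt UMIs, beside 24.6% in the Ghrh-led cluster. The cluster led by Nrgn, Arpp21 and Sst had 645 CPM in 23 cells, and the cluster that held the Pomc neurons 522 CPM in 44 cells. In the Agrp cluster the level was 505 CPM, and 29 of 65 cells were above the cut.

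Cartpt in the Agrp cells was low but over its level in non-neuronal cells. 27 of the 71 Agrp cells were above the Cartpt cut, where they held a median of 12 UMIs, and 25 of the 71 held 0 UMIs. The summed level was 444 CPM (407 to 483) against 14.4 CPM in non-neuronal cells. A single cell, above the cuts of all 4 genes, held 163 of the 540 Cartpt UMIs found in Agrp cells.

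Pomc cells were few and of more than 1 kind. Of 23 cells above the cut, 16 were neuron-like with 5 to 243 UMIs (median 57), 5 were in the unnamed cluster of 8 cells with 107, 115, 150, 258 and 899 UMIs, 1 was microglia-like with 7 and 1 tanycyte-like with 3. 12 of the 16 neuron-like cells were in the cluster of 44 cells led by Avp, Calb1 and Gpr101. These 12 held 24 to 243 Pomc UMIs, apart from a shallow cell with 5 UMIs. Avp (vasopressin) was itself low in these 12 cells, with 11 UMIs in all and at most 4 in a cell, so the Pomc cells and the Avp cells of the cluster were different cells. Isl1, a transcription factor of POMC neurons, had a UMI in 9 of the 12 and Tbx3, a T-box factor of the arcuate nucleus, in 9. Isl1 was not particular to these cells, as 286 of the 556 neuron-like cells had a UMI of it. Prdm12, a further factor of POMC neurons, had a UMI in 2 of the 12.

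Pomc was seldom found with Agrp. 2 of the 16 neuron-like Pomc cells were also above the Agrp and Npy cuts, with 83 and 72 Agrp UMIs beside 12 and 9 Pomc UMIs, and they were placed in the Agrp cluster. 11 of the 16 held 0 Agrp UMIs. Cartpt was above its cut in 7 of the 16, with a median of 3.5 UMIs over all 16 and a maximum of 163.

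The 5 Pomc cells of the unnamed cluster differed from the neuron-like ones. Their Pomc level was 44032 CPM (41852 to 46295), against 5814 CPM (5470 to 6173) in the 12 cells of the Avp-led cluster. The highest of the 5 cells held 899 of their 1529 Pomc UMIs. The 5 cells held 0 UMIs of Isl1, Tbx3 and Slc17a6, where 3 counts, the limit that a count of 0 allows, would be 86.4 CPM. The exact interval for 0 UMIs reached 106 CPM. The 12 cells had 229 CPM of Isl1 (165 to 310), above both limits. Their intervals for Tbx3 (125 CPM, 79.5 to 188) and Slc17a6 (120 CPM, 75.2 to 182) reached below them, so these 2 differences were not resolved. The 5 cells also held 0 UMIs of Prdm12, Pcsk1 and Pcsk2, but the 12 cells had only 27.3, 16.4 and 76.4 CPM, so a difference was not detectable at this depth. Snap25 was present in all 5 (2 to 8 UMIs), and the neuron-enriched RNA Snhg11 had 11 UMIs in all, at 317 CPM against 2367 CPM in the 12. Tbx19, the corticotroph transcription factor, had 5 UMIs in 2 of the 5 cells and 0 in the 16 neuron-like cells. Of the 8 pituitary hormone cell markers, Tbx19 was the only 1 detected in them, and Prl, Gh, Lhb, Fshb, Pax7, Pou1f1 and Nr5a1 were at 0. 1 of the 5 cells was called a doublet. The 3 remaining cells of the cluster had 0 to 2 Pomc UMIs and 39 to 990 UMIs of Cga, the glycoprotein hormone alpha subunit, of which the 5 Pomc cells had 1 UMI in all. Among the marker lists the pars tuberalis list scored best in this cluster, but its 8 cells were too few for a name. Pomc and Cga divided its cells.

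**Figure D3:**
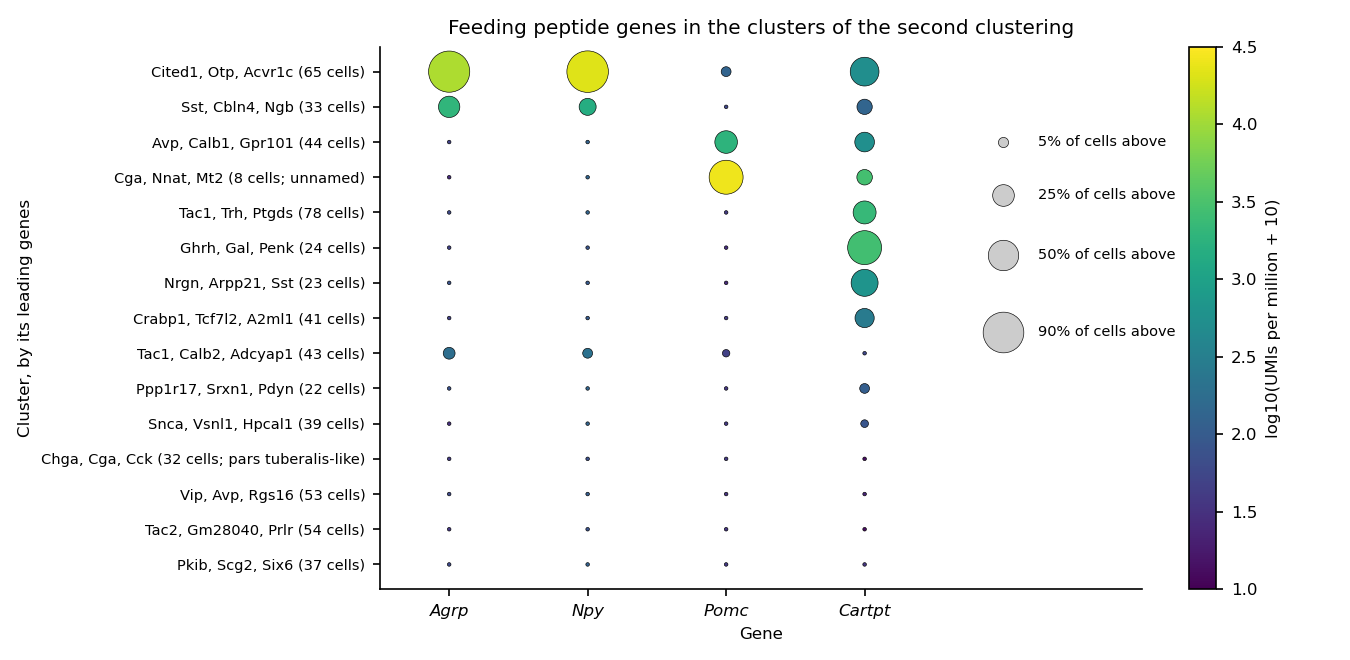
Each row is a cluster of the second clustering, named by its 3 leading genes and its number of cells, and each column a feeding peptide gene; the area of a dot grows with the percentage of cells above the cut and its colour gives log10(CPM + 10). Agrp and Npy share 2 clusters, Pomc is high in the cluster of 8 cells and in the Avp-led cluster, and Cartpt is at 505 CPM or more in 6 clusters. The cluster of 8 cells is 1 of these 6, and 1 cell holds 165 of its 167 Cartpt UMIs.

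Agrp and Cartpt cells were more frequent among the deep neuron-like cells. In the 362 neuron-like cells with 10000 UMIs or more, 17.7% were above the Agrp cut and 24.6% above the Cartpt cut. In the 194 shallower ones the shares were 3.61% and 4.64%. For Pomc they were 3.31% (1.72 to 5.72%) and 2.06% (0.565 to 5.19%), with overlapping intervals. Agrp cells themselves had a median of 18648 UMIs and neuron-like cells above no cut 11196, and whether depth or cell kind sets this gap was not tested.

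By barcode number, Agrp cells were 17 of 117, 13 of 94, 25 of 179 and 16 of 166 neuron-like cells for numbers 1 to 4. These shares were 14.5%, 13.8%, 13.97% and 9.64%, with overlapping intervals (the lowest, 5.61 to 15.2%, and the highest, 8.70 to 22.2%). The median Agrp UMIs of these cells were 214, 190, 205 and 183. Cartpt cells were 15.4%, 18.1%, 20.7% and 15.7% of neuron-like cells. The summed Cartpt level of neuron-like cells was 251.2 CPM in number 1 and 895 CPM in number 3, where 1 cell alone held 901 of 2071 Cartpt UMIs.

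Outside neurons, Agrp had a low level of like size in each type. It lay between 17.8 CPM in mural-like cells (4 UMIs in 75 cells) and 46.0 CPM in ependymocyte-like cells (33.7 to 61.4), and no non-neuronal cell held more than 4 Agrp UMIs. Cartpt ranged from 11.1 to 23.3 CPM over the same types, pars tuberalis-like cells left aside, with at most 3 UMIs in a cell. The ratio of Npy to Agrp UMIs in cells below all cuts was 2.10 (1.72 to 2.57) in MOL-like, 1.85 (1.31 to 2.63) in microglia-like and 2.51 (2.07 to 3.06) in astrocyte-like cells. In the neuron-like cells below all cuts it was 2.19 (1.84 to 2.61). It was 2.71 (2.31 to 3.20) in tanycyte-like cells and 2.40 (2.19 to 2.62) in all non-neuronal types without ependymocyte-like cells. In the 66 cells above both cuts the ratio of summed UMIs was 1.72. That was inside the MOL-like and microglia-like intervals and below those of astrocyte-like, tanycyte-like and neuron-like cells and of the non-neuronal types together. These ratios pool the barcode numbers, and number 1 stood apart. The non-neuronal types without ependymocyte-like cells were at 3.25 (2.64 to 4.02), 2.16, 2.33 and 2.10 in numbers 1 to 4. The cells above both cuts were at 1.88, 1.64, 1.70 and 1.64 by summed UMIs.

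The levels of the 4 genes in non-neuronal cells differed between barcode numbers. In non-neuronal named cells Agrp stood at 21.3, 20.9, 60.3 and 41.2 CPM in numbers 1 to 4, and Npy at 77.1, 56.1, 151 and 103 CPM. Cartpt stood at 4.42, 5.81, 25.2 and 24.5 CPM, and Pomc at 16.5, 14.3, 15.3 and 30.8 CPM. The highest over the lowest number was 2.88 for Agrp (2.30 to 3.63), 2.70 for Npy (2.35 to 3.10), 2.15 for Pomc (1.62 to 2.87) and 5.70 for Cartpt (3.73 to 9.01). Of the 11731 genes with at least 100 UMIs in these cells, 4.04% had such a ratio of 2 or more. All 4 genes were among them, but the 11731 include genes that non-neuronal cells themselves express. Of other neuropeptide genes, Gal had a ratio of 2.95, Sst 2.49, Ghrh 2.18 and Avp 6.16.

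The number with the highest level was not the same for the 4 genes. It was number 3 for Agrp, Npy and Cartpt, and number 4 for Pomc. The supply of each gene in a number differed too. UMIs in expressing cells of numbers 1 to 4 were 3511, 2326, 4884 and 3084 for Agrp and 326, 610, 1857 and 1497 for Cartpt. For Pomc they were 386, 445, 562 and 1309, with the 899 UMIs of the highest cell in number 4. For Npy the expressing cells held 6845, 3827, 8423 and 4674 UMIs. For Agrp and Npy, both the level outside neurons and the UMIs in expressing cells were highest in number 3. Numbers 1 and 4 ranked differently on these measures. Number 1 held more UMIs in expressing cells than number 4 for Agrp and for Npy. Its level outside neurons was lower, at 21.3 against 41.2 CPM for Agrp and 77.1 against 103 CPM for Npy. For Cartpt and Pomc the order rested on 1 cell each. Without the cell of 901 Cartpt UMIs, number 3 held 956 and number 4 held 1497, while the levels outside neurons in these numbers were close (25.2 and 24.5 CPM). Without the cell of 899 Pomc UMIs, number 4 held 410 and number 3 held 562.

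**Figure D4:**
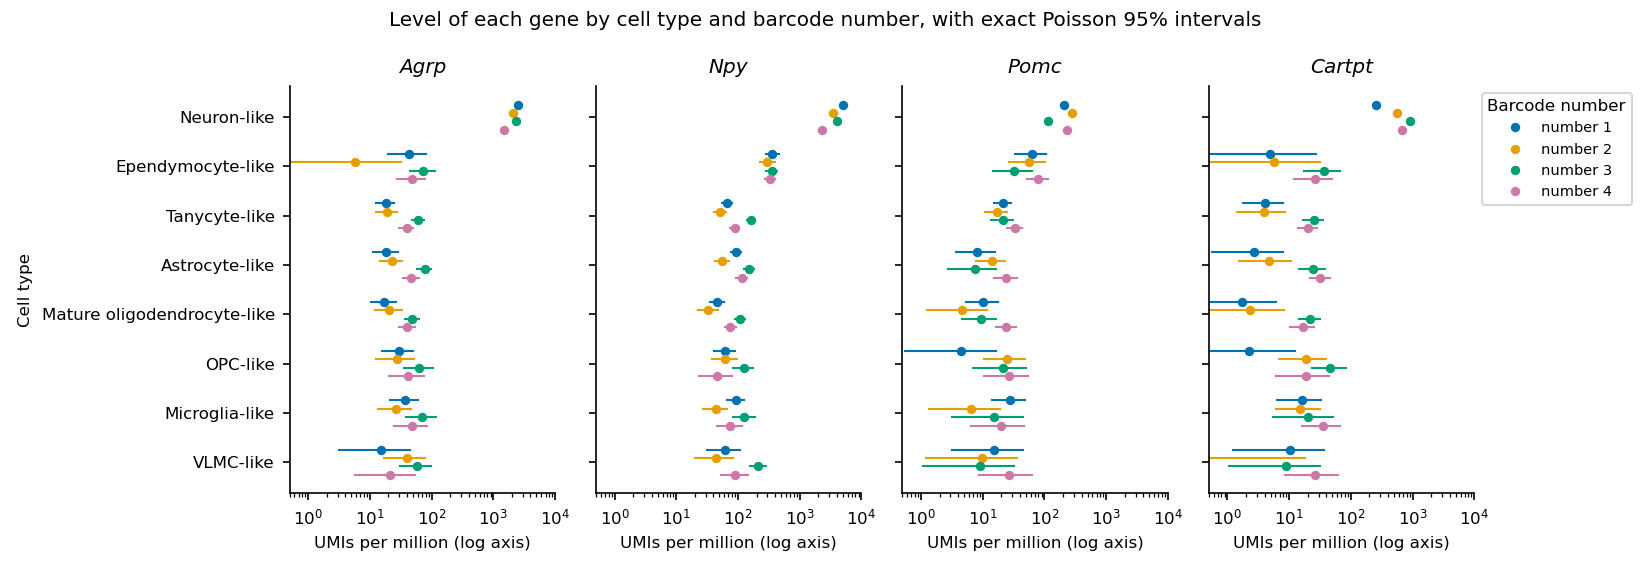
Level of each gene (CPM, log axis) in 8 cell types, with 1 point for each of the 4 barcode numbers and exact Poisson 95% intervals as bars, cut off at the left edge; a bar without a point stands for 0 UMIs. Outside neurons, numbers 3 and 4 lie to the right of numbers 1 and 2 for Agrp and Cartpt in tanycyte-like, astrocyte-like and MOL-like cells, while Npy in ependymocyte-like cells stays between 299 and 362 CPM in every number.

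Ependymocyte-like cells held more Npy than other non-neuronal cells. These ciliated cells line the third ventricle. Their Npy level was 338 CPM (303 to 376), with 362, 299, 354 and 331 CPM in numbers 1 to 4, against 83.0 CPM (79.1 to 87.1) in the other non-neuronal types together. 64.9% of the 202 cells had an Npy UMI, with a median of 4857 UMIs per cell, against 29.97% in MOL-like and microglia-like cells with a median of 5286. After thinning to 2000 UMIs the shares were 41.1% (34.2 to 48.2%) and 11.8% (9.87 to 13.9%). The ratio of Npy to Agrp UMIs below the cuts was 5.09 (3.70 to 7.14), outside the interval of MOL-like and microglia-like cells (1.71 to 2.42). The highest over the lowest number was 1.21 in ependymocyte-like cells and 2.92 in the other non-neuronal types.

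Markers of other cell types beside this result gave the following values. The 9 ependymocyte markers, from which these cells were named, summed to 15590 CPM, against 165 CPM in MOL-like and microglia-like cells. The tanycyte list was at 9129 CPM (22175 CPM in tanycyte-like cells). The 10 neuron markers summed to 809 CPM, against 775 CPM in MOL-like and microglia-like cells and 10366 CPM in Agrp cells. In the 53 ependymocyte-like cells with 3 or more Npy UMIs the neuron markers summed to 718 CPM, with Rbfox3 at 0, and in the 71 cells without Npy to 822 CPM. Mural markers, those of vessel wall cells, did move with the type, at a summed 402 CPM against 58.2 CPM in MOL-like and microglia-like cells. They were at 545 CPM in the 53 cells with 3 or more Npy UMIs and at 379 CPM in the 71 cells without Npy. 6 of the 9 were detected, with Kcnj8, Abcc9 and Notch3 at 0, and their part in the result was not tested. The 16 ependymocyte-like cells above the cut held 0 Agrp UMIs and 10 Npy UMIs at most, and 0 of them were called doublets.

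Pomc was also higher in some non-neuronal types than in MOL-like cells, at a very low level. It was 59.1 CPM (44.96 to 76.2) in ependymocyte-like, 51.2 CPM (25.5 to 91.5, 11 UMIs) in endothelial-like and 23.2 CPM (19.6 to 27.2) in tanycyte-like cells. MOL-like cells were at 12.7 CPM (9.64 to 16.5). Oligodendrocyte progenitor-like cells were at 17.4 CPM (10.9 to 26.3) and microglia-like cells at 17.1 CPM (10.9 to 25.7). These 2 intervals overlap those of endothelial-like and tanycyte-like cells. The thinned share of cells with a Pomc UMI was 11.4% (7.36 to 16.6%) in ependymocyte-like, 4.73% (3.70 to 5.95%) in tanycyte-like and 2.28% (1.28 to 3.74%) in MOL-like cells. At most 3 Pomc UMIs were found in any of these ependymocyte-like, endothelial-like or tanycyte-like cells, so the difference is one of group levels.

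**Figure D5:**
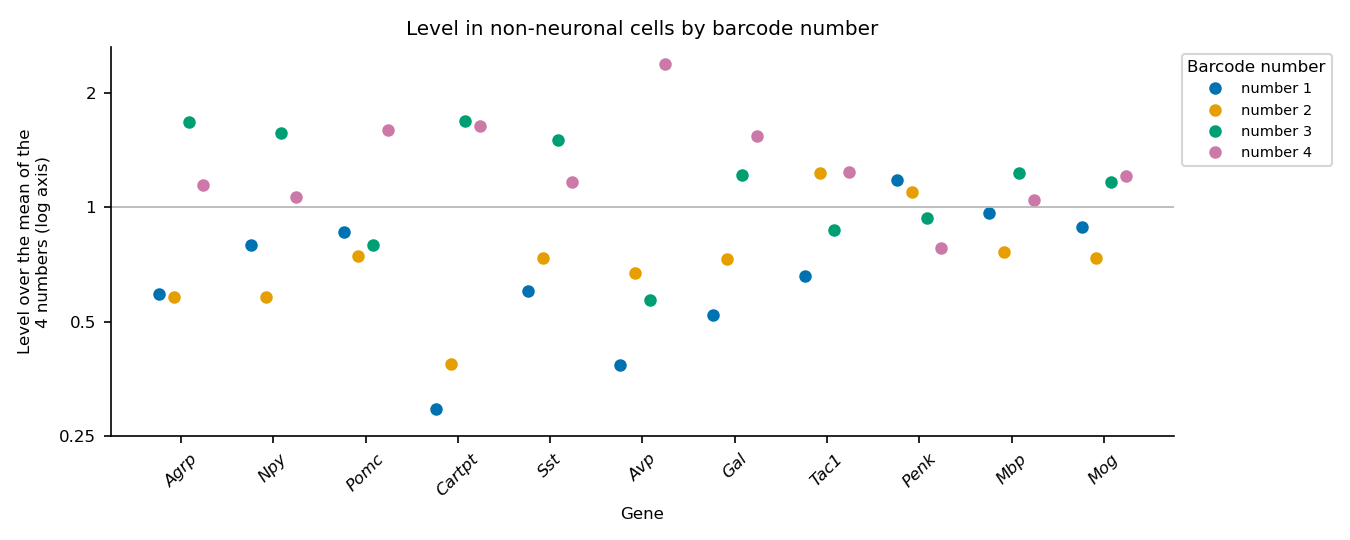
Level of a gene in non-neuronal cells of each barcode number divided by the mean of the 4 numbers (log axis), for the 4 feeding peptide genes, 5 other peptide genes and 2 myelin genes. Cartpt spreads most among the 4 feeding peptide genes, from 4.42 to 25.2 CPM, while Mbp and Mog have ratios of 1.62 and 1.64 between the highest and lowest number.

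The feeding circuit was compared between the cells of each gene and the remaining neuron-like cells, as a ratio of CPM with 10 CPM added to both, for the 7685 genes with at least 100 UMIs. A ratio of 2 or more is given as higher and of 0.5 or less as lower. For Agrp cells, 0.768% of all genes were higher and 3.12% lower, with a median ratio of 0.921. For Pomc cells the shares were 0.677% and 4.29% (median 0.963), and for Cartpt cells 0.195% and 0.442% (median 0.967). There were 71 Agrp, 16 Pomc and 98 Cartpt cells, and the sets overlap.

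Receptor genes were mostly too rare to compare, with 6 of 14 reaching 100 UMIs. In Agrp cells 1 of the 6 was higher and 1 lower (median ratio 0.754). Npy2r, the NPY receptor often found on NPY neurons themselves, was at 136 CPM (116 to 159) against 16.7 CPM (13.5 to 20.5) and was higher in 4 of 4 barcode numbers. Mrap2, a melanocortin receptor accessory protein, was at 30.4 against 88.2 CPM. Below the 100-UMI limit, Lepr, the leptin receptor, was at 18.9 CPM (11.98 to 28.4) against 4.13 CPM (2.62 to 6.20), and Ghsr, the ghrelin receptor, at 18.1 CPM (11.3 to 27.4) against 2.88 CPM (1.64 to 4.67). The melanocortin receptor gene Mc3r was at 12.3 CPM (6.90 to 20.3) against 5.21 CPM (3.49 to 7.49), and the insulin receptor gene Insr at 11.5 against 12.2 CPM. Htr2c, a serotonin receptor gene, had 0 UMIs in Agrp cells against 58 in the remaining neuron-like cells, at least 4.23-fold lower by the limit of 3 counts, and Mc4r had 0 against 16. In Pomc cells 2 of the 6 were higher (median 1.19). These were Npy1r at 124 CPM (82.5 to 179) against 37.2 CPM (32.7 to 42.2) and Npy5r at 66.5 CPM (37.2 to 110) against 19.1 CPM (15.9 to 22.7). In Cartpt cells 0 of the 6 passed in either direction (median 1.15). Npy1r was at a ratio of 1.62 there, and passed as higher, at 2.03, with the Agrp cells taken out of both sides.

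Among the cell types, RNA of Mrap2, Npy5r, Mc3r and Mc4r was found mainly in neuron-like cells. Mrap2 had 528 UMIs in neuron-like cells and at most 8 in any other type. Npy5r had 140, and Mc3r and Mc4r had 44 and 16. Npy1r was highest elsewhere, with 231 CPM (173 to 303) in mural-like cells of the vessel wall against 40.1 CPM (35.5 to 45.2) in neuron-like cells, and 46.7% of the 75 mural-like cells held a UMI. The melanocortin-linked proteoglycan gene Sdc3 was at 212 CPM (188 to 239) in oligodendrocyte progenitor (OPC)-like and 78.8 CPM (70.3 to 88.1) in astrocyte-like cells, over 36.1 CPM (31.7 to 40.9) in neuron-like cells. Atrn, encoding attractin, was at 64.5 CPM (51.3 to 80.1) in differentiating OPC-like and 46.9 CPM (40.8 to 53.7) in MOL-like cells, over 24.3 CPM (20.8 to 28.3) in neuron-like cells. Glp1r had 0 UMIs in every named type, which allows up to 3 UMIs in each.

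Genes for peptide processing passed in neither direction against the remaining neuron-like cells. 7 of 8 were compared in each set, and 0 of 7 were higher or lower in Agrp cells (median 1.34), Pomc cells (0.879) and Cartpt cells (0.977). With the Agrp cells taken out of both sides, Pam was lower in Pomc cells, at a ratio of 0.269 instead of 0.727. The nearest to the limit in Agrp cells were Ctsl and Pcsk1. Pcsk1, the prohormone convertase that makes the first cuts in POMC, was at 37.8 CPM (27.7 to 50.4) against 20.1 CPM (16.6 to 24.2) in Agrp cells.

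Among transcription factors, 6 of 9 were compared. In Agrp cells 3 were higher (Otp, Foxo1 and Stat3) and Nkx2-1 was lower (median 1.87). Otp was at 590 CPM (548 to 635) against 98.9 CPM (90.8 to 107). Foxo1, a target of insulin signalling, was at 64.1 against 19.1 CPM, and Stat3, which carries the leptin signal, at 92.0 against 34.7 CPM. In Pomc cells Tbx3 was higher at 133 CPM (89.8 to 190) against 56.3 CPM, while Otp, at 71.0 against 191 CPM, and Foxo1 were lower (median 1.18). Foxo1 had 0 UMIs in the Pomc cells, where 3 counts would be 13.3 CPM, so it was at least 2.11-fold lower, but at 3 counts it would miss the ratio of 0.5, which leaves 1 factor lower. The value of Otp depended on the Agrp cells, since its ratio of 0.403 became 0.721 when the Agrp cells were taken out of the remaining neuron-like cells, which ends the call. It was 0.0890 when the 2 Pomc cells above the Agrp cut were taken out as well. Every other gene of the circuit and peptide lists called in Pomc cells was called in the same direction against neuron-like cells without the Agrp cells. Prdm12, a factor of POMC neurons, had 5 UMIs in Pomc cells, 4 of them in 1 cell, and 1 in the remaining neuron-like cells. In Cartpt cells Foxo1 alone was higher (median 1.495). Against neuron-like cells without the Agrp cells, Otp, at a ratio of 2.79, and the receptor gene Npy2r, at 3.11, were higher in Cartpt cells too, but at 1.27 and 1.52 they were not once the Agrp cells were also taken out of the Cartpt cells.

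Transmitter genes separated the Agrp and Pomc cells. Slc17a6, the vesicular glutamate transporter, was at 1.64 CPM in Agrp cells against 89.3 CPM in the remaining neuron-like cells, and was the 1 of 4 transmitter genes that was lower (median 0.776). Slc32a1, the vesicular GABA transporter, was at 140.5 against 199 CPM there. In Pomc cells 2 of 4 were lower (median 0.486). Slc32a1 had 0 UMIs against 195 CPM, at least 14.6-fold lower by the limit of 3 counts, and Gad2 was at 164 against 398 CPM. Gad1, at a ratio of 0.547, was not called, but it was lower, at 0.492, with the Agrp cells taken out of both sides. Slc17a6 was at 111 CPM (71.8 to 164) against 72.3 CPM (65.9 to 79.1), a ratio of 1.47.

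Other peptide genes were low where Agrp or Pomc was high. 12 of 18 were compared, and 10 of the 12 were lower in Agrp cells (median 0.106). Sst, at 1383 against 1994 CPM, and Nts were the exceptions. The Sst level was uneven among Agrp cells. It was 218 CPM in the Cited1-led cluster with 60 Agrp cells, and 18607 CPM in the Sst-led cluster with 8. In Pomc cells 11 of the 12 were lower (median 0.0937). With the 5 genes at 0 set to 3 counts, 9 of the 12 were lower (median 0.113), as Nts and Th no longer passed. In these cells Pdyn, the dynorphin precursor, was higher at 186 CPM (134 to 252) against 58.3 CPM (52.6 to 64.4). In Cartpt cells Ghrh, Gal and Th were higher and Tac2, Tac1, Avp and Vip lower (median 1.20). Th was at a ratio of 2.12, and of 1.92 against neuron-like cells without the Agrp cells, which ends its call, and of 2.60 with the Agrp cells taken out of both sides. On that last comparison Trh, at 2.58, and Nts, at 2.20, were higher too. Ghrh was at 812 CPM (767 to 859) against 55.1 CPM (48.9 to 61.8), higher in 4 of 4 barcode numbers.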

How the data were processed

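Single cells of the ME were profiled with droplet-based 10x Genomics libraries. Mapping to mm10 and UMI counting were done by the authors with Cell Ranger 2.0 (per the labels), and the deposited matrix holds these counts of all cells without normalization, at a median of 3837 UMIs per cell. Symbols of 27645 of 27998 gene identifiers were matched to GENCODE vM21. The members and gene lists were chosen with earlier results of these data known. With scanpy 1.11.5, counts were scaled and log-transformed, and 2000 variable genes without the 4 members, 30 principal components, 15 neighbours and Leiden resolution 1 gave clusters named from marker lists. Haemoglobin genes made up 10% or more of the UMIs in 3 cells, which were kept out of the clustering and of every type. Neuron-like and pars tuberalis-like clusters were clustered a second time, a step added after seeing the data. Scrublet called 50 doublets (0.836%), which were kept. Sums of UMIs per group were divided by the group's total. Genes in the text are the members, the circuit and peptide lists, the 5 genes of highest correlation with a member and the leading genes of neuron clusters. The single genes described in the Pomc cells beyond these lists were chosen after their values were seen. The cut for expressing cells and the ratio of summed counts were tested on simulated counts, and the clustering and naming were not. The simulated expressing cells had a share of UMIs near that of Agrp cells (median 1.10%). Calls at the share of Cartpt cells (median 0.104%) were therefore not covered. As the matrix is 1 sample, no p-value was computed. Alternatives covered the clustering, the depth, the doublets, the cut and the cells taken as background. 0 columns of sample values were left unused.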

Additional observations from a re-analysis of the deposited data

How the results depend on the processing

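No paired analysis was possible because the cells could not be assigned to samples and no result comes from a test. The share of UMIs in neuron-like cells depended most on depth and on the cluster of 8 cells. Thinned to 2000 UMIs, it was 82.9% for Agrp, 75.4% for Npy, 25% for Pomc and 74.8% for Cartpt, since shallower cells then weigh as much as deep neurons. For Pomc it was 87.0% at Leiden resolution 0.5, at resolution 2 and with the 8 cells counted as neuron-like, 72.7% with 9 K-means clusters, where the cluster scored best for neurons also held pars tuberalis cells, and 42.8% without doublets. For Cartpt both resolutions, K-means and the 8 cells each gave 93.4%. With the 4 genes kept among the variable genes the share was 94.4% for Agrp and 38.5% for Pomc, and without the second clustering 90.2% for Agrp, 87.4% for Npy and 38.5% for Pomc. The alternatives at other resolutions had no second clustering. Leaving out 1 barcode number gave 94.3 to 95.2% for Agrp, 91.4 to 92.6% for Npy, 37.5 to 48.9% for Pomc and 87.0 to 94.0% for Cartpt. Of 28 counts of expressing cells under the other alternatives, 27 stayed within 1.5 times the value given, and 39 cells passed a fixed cut of 20 UMIs for Cartpt. Leaving out 1 number left 46 to 58 cells for Agrp, 61 to 70 for Npy, 16 to 18 for Pomc and 63 to 84 for Cartpt, where 46 of 71 and 63 of 101, both without number 3, were beyond 1.5 times. The highest over lowest level in astrocyte-like cells alone was 4.22 for Agrp, 3.15 for Pomc and 11.8 for Cartpt (interval 3.67 to 60.2, from 3 UMIs in the lowest number), and in MOL-like cells alone 3.26 for Npy, 5.26 for Pomc (4 UMIs in the lowest number) and 12.8 for Cartpt (interval 3.19 to 111, from 2 UMIs in the lowest number). The number with the highest level stayed the same in each of these, apart from Cartpt in astrocyte-like cells, where it was number 4. The alternatives that leave out the second clustering, count the 8 cells differently, use neuron-like cells alone, leave out ependymocyte-like cells, the cell with the most UMIs or the Agrp cells, or set 0 UMIs to 3 counts were added after seeing the data. The cause of the differences between settings was not tested further. The Pomc results in neurons rest on 16 cells, and 26 of 101 Cartpt cells lie within 2 UMIs of their cut.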

Other observations

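Other peptide genes had levels in non-neuronal cells that can be set beside those of the members. Whether these UMIs were free RNA or made by the cells was not tested. Sst stood at 18.7, 22.8, 46.4 and 36.1 CPM in barcode numbers 1 to 4, a ratio of 2.49 between the highest and the lowest number. Avp stood at 20.5, 35.6, 30.2 and 126 CPM, a ratio of 6.16 with number 4 highest. Penk, at 40.1, 37.4, 31.9 and 26.6 CPM, was about as high there as in neuron-like cells (41.9 CPM), and its ratio was 1.51. Haemoglobin gene Hbb-bs stood at 1.31, 12.8, 0.420 and 31.9 CPM, an order over the numbers unlike that of any of the 4 members. In tanycyte-like cells, which border the ependymocyte-like cells in the ventricle wall, Npy was at 66.3, 51.3, 160 and 88.2 CPM in the 4 numbers and stayed near the astrocyte-like levels of 93.0, 55.1, 150.3 and 114 CPM. Pcsk2, a prohormone convertase, had 258 CPM (228 to 292) in ependymocyte-like cells, the type with raised Npy, against 163 CPM (153 to 173) in neuron-like and 141 CPM (132 to 151) in tanycyte-like cells.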
